A study of Mus musculus with 3 samples.

Results

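The 10 genes described here encode inhibitors that act outside the cell on Wnt signalling: the Dickkopf genes Dkk1, Dkk2 and Dkk3, the secreted Frizzled-related genes Sfrp1, Sfrp2, Sfrp4, Sfrp5 and Frzb, the Wnt inhibitory factor gene Wif1, and Apcdd1. They were found by gene symbol among the probes of an Illumina MouseRef-8 bead array, where they had 12 of 25697 probes and were 10 of 17849 genes. All 10 were measured, Dkk3 by 3 probes and the other 9 genes by 1 probe each. The deposited annotation placed Frzb on chromosome 2, Sfrp2 on 3, Dkk3 on 7, Wif1 on 10, Sfrp4 on 13 and Sfrp5 on 19. The RNA came from back-skin mesenchyme, the dorsal dermal fibroblast progenitors, of mouse embryos at embryonic day 12.5 with the genotype Engrailed1Cre/+;R26R/+, that is, 1 Cre allele at Engrailed1, which somite cells fated to back dermis express, and 1 Cre reporter allele at Rosa26. The labels do not say whether the reporter guided the cutting. The cells of 5 embryos were cut out by laser capture and their RNA was pooled before amplification, so the 3 arrays were technical replicates of 1 pool and formed the only group. Each SD below therefore measures technical spread, with none of the variation between embryos, and no embryo without the 2 alleles was compared. The number of arrays limits the precision of every value.

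Wnt proteins are secreted signals that bind Frizzled receptors and the co-receptors Lrp5 and Lrp6 and so stabilise beta-catenin, which switches on target genes in the nucleus. Sfrp proteins, Frzb and Wif1 bind Wnt proteins themselves, and Dkk1 and Dkk2 bind the co-receptors. Apcdd1, which sits in the cell membrane, can bind both Wnt and Lrp proteins. Early dorsal dermis needs beta-catenin signalling to form, and several of these inhibitor genes are known targets of that signalling elsewhere in the embryo.

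A probe was called detected when its deposited detection p, which ranks its signal among the negative controls of the same array, was below 0.01 on each of the 3 arrays; a gene counted as detected through any of its probes. The p-values came in steps of 1 in 798, so a p of 0 means that none of about 798 controls was as bright, which allows a share of up to 0.376% of such controls. Detection was called for 6 of the 10 inhibitor genes, Dkk1, Dkk3, Sfrp1, Sfrp2, Wif1 and Apcdd1, where 43.6% of all genes on the array were detected. Of the 12 probes 7 were detected, beside 37.7% of all probes. These shares over so few genes are a description, with no test. Dkk2, Sfrp4, Sfrp5 and Frzb, with 1 probe each, were not detected and passed on no array. This does not show that their transcripts were absent. Signals are given in arbitrary units, and since probes differ in how strongly they bind, the level of 1 probe was not set against that of another.

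The 3 arrays differed in brightness before normalization. Median non-normalized signals over all probes were 107, 83.8 and 112, and the authors' normalized values were a straight-line rescaling of each array, with slopes of 0.672, 2.07 and 0.699. The lowest normalized signal that passed the detection threshold was 23.1 on array 1, 44.3 on array 2 and 31.2 on array 3, so on this scale the bar was highest on array 2. In an unsplit tissue sample, fewer cells of a type and less RNA per cell cannot be told apart.

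**Figure D1:**
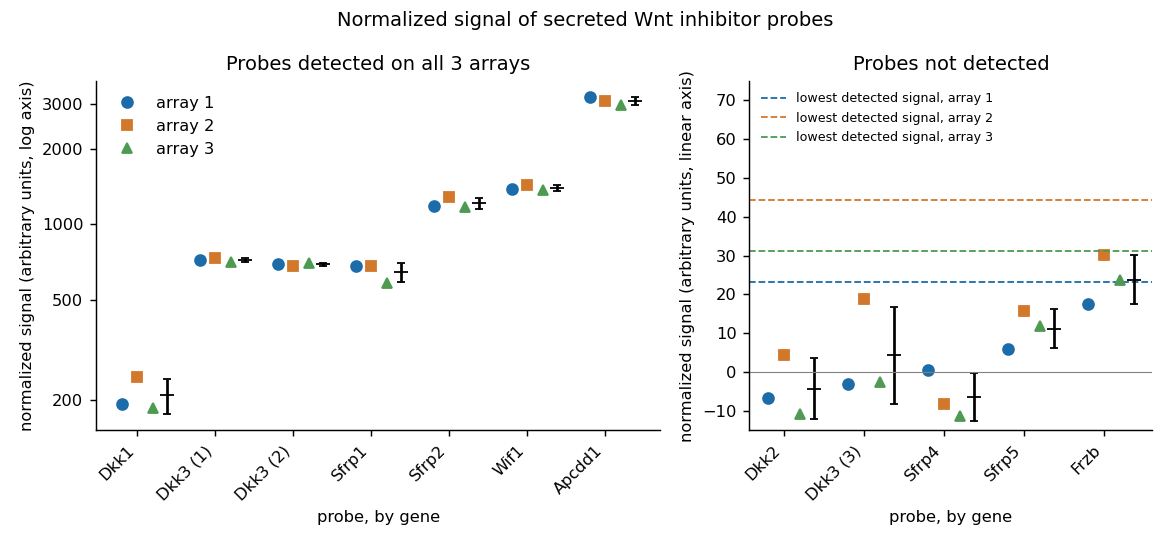
Normalized signal (arbitrary units) of each probe on arrays 1, 2 and 3, for the 7 detected probes on a log axis and the 5 probes not detected on a linear axis. Black bars are the mean ± SD over the 3 arrays and dashed lines are the lowest detected signal of each array; numbers in brackets count the probes of Dkk3, and heights of different probes are not comparable. The detected Dkk3 probes lay near 720 and 693, while the Dkk3 probe that was not detected lay near 0.

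Among the Dickkopf genes, Dkk1 and Dkk3 were detected and Dkk2 was not. Dkk1, the classical secreted antagonist that binds Lrp5 and Lrp6, had normalized signals of 193, 247 and 185 on arrays 1, 2 and 3, a mean of 208 ± 33.6 (SD, n = 3). On each array none of the controls was as bright. Array 2 gave the highest value of Dkk1.

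Dkk3 encodes a divergent Dickkopf protein that is not a typical Lrp6 antagonist. Its first probe read 717, 736 and 707, a mean of 719.9 ± 14.7 (SD, n = 3). Its second probe read 696, 683 and 699, a mean of 693 ± 8.97 (SD, n = 3). The arrays gave nearly the same value at either probe. The remaining probe of Dkk3 read -3.19, 18.8 and -2.60, with 427, 90 and 377 of the 798 controls at least as bright. The probes of Dkk3 thus disagreed, although the deposited annotation gives them the same search key. Which region each Dkk3 probe targets could not be checked. Such disagreement was common on this array: of 1055 detected genes with 3 probes, 870 (82.5%) had at least 1 probe that was not detected. Under a stricter rule that needs a detected signal at each probe, Dkk3 would not be called, and the inhibitor count would be 5.

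Dkk2, whose protein binds Lrp6 and which is known from later dermis and hair follicle mesenchyme, read -6.64, 4.45 and -10.8, a mean of -4.32 ± 7.87 (SD, n = 3). Of the negative controls, 585, 282 and 686 were at least as bright, which places the Dkk2 probe inside the background range on every array. No array gave a signal near its threshold.

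The promoters of Dkk1 and Dkk2 are shown because these related genes fell on opposite sides of the detection call. The sequences are the 250 bases before the annotated start, from RefSeq in build GRCm38.p6, at chr19:30549497-30549746 on the minus strand for Dkk1 and chr3:132085042-132085291 on the plus strand for Dkk2. They are written 5′ to 3′ along the gene, and the capitals mark the letters CTTTG or their reverse complement CAAAG, the core that Tcf and Lef factors recognise, and the TATA box letters TATAAA.
Dkk1: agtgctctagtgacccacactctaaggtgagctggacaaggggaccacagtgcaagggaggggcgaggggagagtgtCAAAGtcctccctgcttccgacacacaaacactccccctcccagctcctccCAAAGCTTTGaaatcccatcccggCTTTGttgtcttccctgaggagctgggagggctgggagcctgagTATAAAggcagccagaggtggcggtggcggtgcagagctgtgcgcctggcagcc
Dkk2: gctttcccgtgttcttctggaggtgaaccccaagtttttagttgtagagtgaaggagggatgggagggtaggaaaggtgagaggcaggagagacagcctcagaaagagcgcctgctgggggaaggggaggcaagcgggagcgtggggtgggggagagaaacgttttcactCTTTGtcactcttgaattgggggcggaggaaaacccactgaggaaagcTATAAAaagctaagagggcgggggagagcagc
Searched on both strands, the CTTTG core stood at 4 places in the Dkk1 window, of which 2 overlap the longer form CTTTGA, and at 1 place in the Dkk2 window, which has no CTTTGA. Promoters were given for 6 of the 10 inhibitor genes, and none for Dkk3, Sfrp1, Sfrp4 and Apcdd1. Of the detected genes, Sfrp2 had 0 matches and Wif1 had 1 and no CTTTGA. Of the genes not detected, Frzb had 1 match that was part of CTTTGA and Sfrp5 had 0. Whether the core bears on the detection call was not tested. Over 32851 promoter windows of the same length, 48.6% held CTTTG, 13.8% held CTTTGA and 12.4% held TATAAA. Both windows held TATAAA, beginning 54 bases before the start in Dkk1 and 32 bases before it in Dkk2. No binding was measured in these samples, so the matches describe the letters only. The GC content of the 6 windows ran from 55.6% in Dkk2 to 64.4% in Frzb, above the median of 52.4% over all windows. Among detected genes it was 60.8% in Dkk1, 63.6% in Sfrp2 and 62.8% in Wif1. Sfrp5, which like Dkk2 and Frzb was not detected, had 59.6%.

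Of the 5 genes whose products carry a Frizzled-like cysteine-rich domain, Sfrp1 and Sfrp2 were detected and Sfrp4, Sfrp5 and Frzb were not. Sfrp1, a Wnt-binding protein of many embryonic mesenchymes, read 680.1, 678 and 580.5, a mean of 646 ± 57 (SD, n = 3). Arrays 1 and 2 agree within 2 units and array 3 was lower. Sfrp2, a related protein made in somite derivatives and dermal fibroblasts, read 1181, 1283 and 1174, a mean of 1212 ± 60.8 (SD, n = 3). For both genes none of the controls was as bright on any array.

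Frzb, also named Sfrp3 and known from developing cartilage, came closest to the threshold among the genes that missed it. It read 17.5, 30.2 and 23.7, a mean of 23.8 ± 6.32 (SD, n = 3), with 30, 28 and 14 of the 798 controls at least as bright. Its detection p-values of 0.0376, 0.0351 and 0.0175 lay above 0.01 and under 0.05 on every array, so Frzb is the only inhibitor gene whose call changes at a threshold of 0.05, where 48.5% of all genes pass. At that threshold 12 of 1245 odorant, vomeronasal and taste receptor genes, which skin is not known to use widely, passed too.

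Sfrp5 and Sfrp4 lay lower. Sfrp5, known from gut endoderm and adipose tissue, read 5.91, 15.8 and 11.8, a mean of 11.2 ± 4.97 (SD, n = 3), with 127, 120 and 52 controls at least as bright. Sfrp4, known from mature connective tissue and bone, read 0.576, -8.17 and -11.5, a mean of -6.35 ± 6.22 (SD, n = 3), with 266, 573 and 704 controls at least as bright. Neither gene came under a detection p of 0.05 on any array.

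Wif1, whose protein binds Wnt ligands through a domain of its own and which is known from mesenchyme next to epithelia, was detected with 1374, 1437 and 1366, a mean of 1392 ± 39 (SD, n = 3). The values of arrays 1 and 3 were almost equal and that of array 2 slightly higher. Apcdd1, a direct target of beta-catenin signalling in several tissues and mutated in a hereditary hair loss of humans, read 3210.2, 3086 and 2982, a mean of 3093 ± 114 (SD, n = 3). Array 1 gave the highest value of Apcdd1, where array 2 gave that of Wif1, and array 3 gave the lowest value of each. At both genes none of the controls was as bright on any array.

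Before normalization the same probes looked different between arrays. Apcdd1 had non-normalized signals of 4864, 1568 and 4358, Wif1 of 2130.3, 769 and 2046, and Dkk1 of 372, 193 and 356. Array 2 was the lowest at every detected inhibitor probe. Of the probes not detected, Dkk2 was nearly the same on all arrays at 75.3, 75.6 and 75.5, whereas Frzb read 111, 88.0 and 125. After the authors' rescaling array 2 was the highest at 4 of the 7 detected probes and array 3 the lowest at 6 of 7. Over all 9693 detected probes array 2 was the highest at 43.8% and array 3 the lowest at 34.7%, and with 7 probes the counts are a description.

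**Figure D2:**
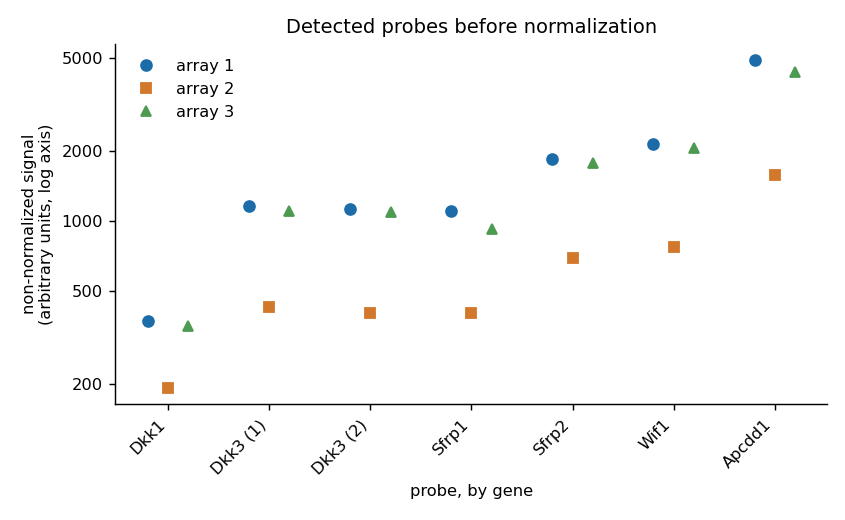
Non-normalized signal (arbitrary units, log axis) of the 7 detected probes on each array, 1 symbol per array. Array 2 lies below arrays 1 and 3 at every probe, as at Apcdd1 with 1568 against 4864 and 4358.

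Differences between arrays in the normalized values were small for most inhibitors. The SD of log2 signal over the 3 arrays had a median of 0.053 over the 7 detected probes, against 0.11 over all 9693 detected probes. By probe it was 0.22 for Dkk1, 0.029 and 0.019 for the detected Dkk3 probes, 0.13 for Sfrp1, 0.071 for Sfrp2, 0.040 for Wif1 and 0.053 for Apcdd1. For comparison within a signal range, the middle 50% of the 2909 detected probes with mean signals of 100 to 300 had an SD of 0.082 to 0.20, and that of the 2742 probes at 300 to 1000 ran from 0.050 to 0.12. The same range was 0.040 to 0.097 at 1000 to 3000 and 0.060 to 0.15 at 3000 to 10000. Dkk1 and Sfrp1 thus lay just above the middle range of probes with similar signal. Both detected Dkk3 probes and Apcdd1 lay below it, and Sfrp2 and Wif1 lay inside it. With a mean of 3093, Apcdd1 stood at the lower edge of its range, and its SD would lie inside that at 1000 to 3000.

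The array that set each of these genes apart differed. Dkk1 was higher on array 2 than on array 1 by 0.36 on the log2 scale, where probes of its signal range had a median of -0.04 and quartiles of -0.21 and 0.13. Sfrp1 was lower on array 3, with a log2 ratio to array 1 of -0.23, where the quartiles of its range were -0.071 and 0.068. Apcdd1 on array 2 lay at -0.057 relative to array 1, under the quartiles of 0.049 and 0.21 for the 501 detected probes at 3000 to 10000. Its mean was near the edge of that range. Beside the quartiles at 1000 to 3000, -0.052 and 0.12, Apcdd1 lay only slightly lower. Its ratio of array 3 to array 1, -0.11, and the ratio of array 2 to array 1 at Sfrp2, 0.12, also lay just outside the quartiles of their ranges, while the Dkk3 and Wif1 probes lay inside on both comparisons. With 1 array on each side these differences have no test.

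**Figure D3:**
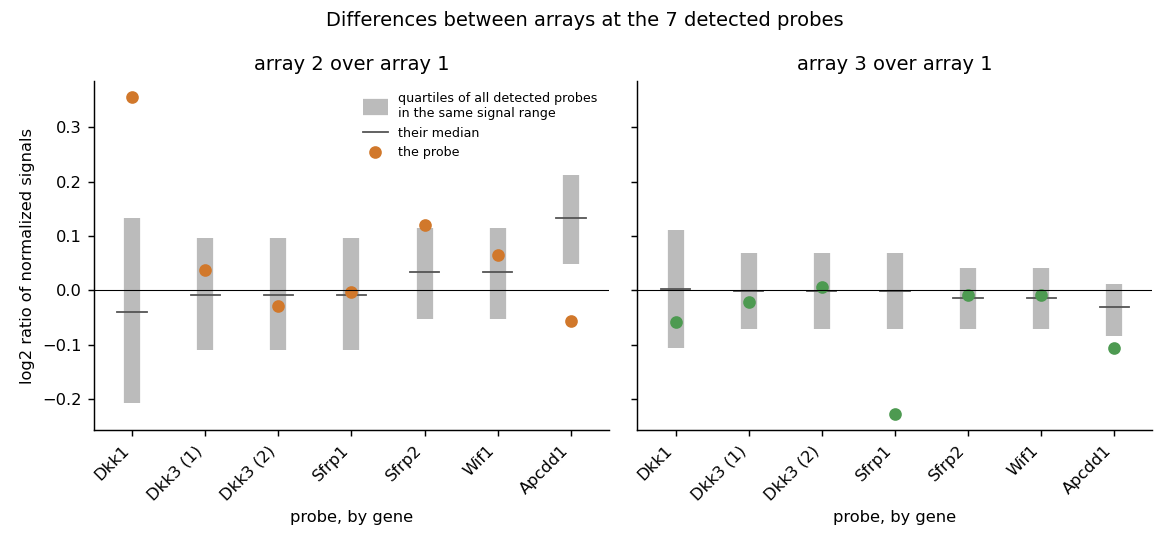
Log2 ratio of normalized signal between arrays at each detected inhibitor probe, array 2 over array 1 on the left and array 3 over array 1 on the right. Grey bars are the quartiles and dark lines the medians of all detected probes in the same range of mean signal; Dkk1 on array 2 (0.36) and Sfrp1 on array 3 (-0.23) lie farthest outside the bars.

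The genes these inhibitors act on or answer to were read in the same pool. Of the Wnt ligand genes 8 of 19 were detected, beside 43.6% of all genes. Wnt5a, a ligand of beta-catenin-independent signalling and of limb and skin mesenchyme, had a brightest probe at 2369, 2471 and 2442. Wnt2, made by mesenchyme in several organs, was read at 517 ± 23.2 and Wnt11 at 50.2 ± 7.44 (SD, n = 3). The remaining 5 detected ligand genes were Wnt3a, Wnt4, Wnt6, Wnt7a and Wnt7b, some of which embryonic epidermis is known to make. Some ligand calls lay near the threshold. Wnt3a and Wnt11 lost theirs at a detection p under 0.001, while Wnt5b and Wnt10a, not detected, missed the threshold on array 2 only.

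Beside 43.6% of all genes, 12 of 17 receptor and co-receptor genes were detected. Lrp5 and Lrp6, the co-receptors that Dkk1 binds, were not among them. Lrp5 read 15.2, -0.215 and 11.5, with a mean of 8.85 ± 8.07 (SD, n = 3), and passed on no array. Lrp6 read 29.7, 6.85 and 21.0, with a mean of 19.2 ± 11.5 (SD, n = 3), and passed on array 1 only. Each was measured by 1 probe, and a call of not detected does not show that a transcript was absent.

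The Kremen genes encode membrane proteins that bind Dkk1 and Dkk2 together with Lrp6, and both Kremen genes were detected. Kremen1 read 216, 231 and 176 by 1 of its 2 probes, and Kremen2 read 264, 274 and 307. Lrp4, whose product can bind Dkk1 and sclerostin, read 316, 333 and 268. The Frizzled receptor genes, whose Wnt-binding domain resembles that of Sfrp proteins, were detected at Fzd1, Fzd2, Fzd3, Fzd5, Fzd6, Fzd7 and Fzd10 and not at Fzd4 and Fzd8. Fzd3 (56.5 ± 1.81) lost its call at a detection p under 0.001, and the brightest Fzd4 probe passed on array 2 only. Ror2 and Ryk, receptors for Wnt5a, were read at 456 ± 25.7 and 2046 ± 45.8 (SD, n = 3), while Ror1 at 7.52 ± 1.96 was not detected.

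Of the 12 feedback and target genes 8 were detected, beside 43.6% of all genes. Axin2, a feedback inhibitor inside the cell, read 2264, 2226 and 2244. Sp5, a transcription factor induced directly by Wnt signalling, read 3473, 3829 and 3360.0, and Nkd2, an inhibitor of Dishevelled, read 874, 990.2 and 834. The other detected genes were Lef1 (66.4 ± 16.6, by 1 of 2 probes) and Tcf7 (139 ± 29.4), which encode nuclear partners of beta-catenin, the cell cycle gene Ccnd1, and Twist1 and Twist2, which are also dermal markers. Lef1 lay close to the threshold on array 2, at 51.7 where the lowest detected signal was 44.3. Nkd1, the relative of Nkd2, lay at 18.2 ± 11.8 (SD, n = 3), and the ubiquitin ligase genes Rnf43 and Znrf3, which remove Frizzled from the membrane, lay at -1.85 ± 5.94 and -6.95 ± 6.78. These 3 genes and Myc (2.74 ± 3.85) were not detected.

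Further regulators of Wnt signalling outside the set of 10, most of them extracellular, were detected at 10 of 18, beside 43.6% of all genes. Notum, an enzyme that inactivates Wnt proteins by removing their lipid, read 1478, 1706 and 1438. Sostdc1, which antagonises both BMP and Wnt proteins, was read at 296 ± 27.5, and the Dickkopf relative Dkk4 close to the threshold at 47.0 ± 7.32 (SD, n = 3). The Wnt-enhancing R-spondin genes Rspo1 (83.0 ± 4.48) and Rspo3 (155 ± 8.88) were detected and Rspo2 and Rspo4 were not. Sost (-8.50 ± 3.54) and Cer1 (1.56 ± 10.6), whose proteins are antagonists of bone and of the early embryo, were not detected either.

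**Figure D4:**
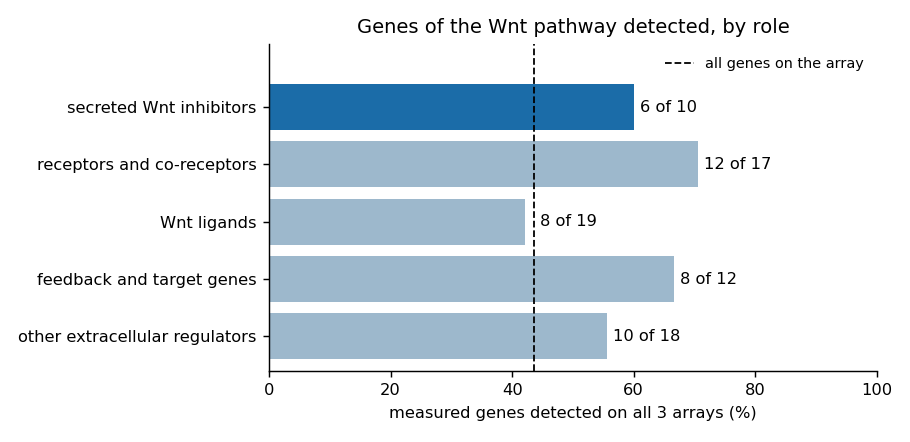
Share of measured genes detected on all 3 arrays for the secreted Wnt inhibitors and 4 lists of Wnt pathway genes, with the number detected of those measured beside each bar and the share of all genes (43.6%) as a dashed line. The inhibitors stand at 6 of 10 and the ligands at 8 of 19.

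Of 12 genes of dermal mesenchyme, the labelled tissue, 11 were detected, among them Twist2 at 2827 ± 181 and Pdgfra at 4106 ± 158 (SD, n = 3). Dpt, a marker of mature fibroblasts, lay at 2.13 ± 3.02 and was not detected. The list was chosen with earlier results of these data known, so the count is a description and no check of the label. Genes of other cell types were read in the same pool, with 7 of 11 cartilage genes, 9 of 11 skeletal muscle genes, 7 of 9 epidermal genes, 8 of 10 endothelial genes and 3 of 5 mesothelial genes detected, beside 43.6% of all genes. Summed normalized signals over the arrays ran from 9569 to 10864 for the cartilage list, from 23287 to 28333 for muscle, from 2283 to 2460.3 for epidermis, from 5149 to 5531 for endothelium and from 1314 to 1409 for mesothelium, and from 21814 to 23431 for dermal mesenchyme. These sums show only how a list varies between arrays, since lists differ in length and probes in binding, so they are not comparable between lists. The markers not detected were Col9a1, Col9a3, Col11a2 and Comp for cartilage, Myod1 and Myf5 for muscle, Perp and Sfn for epidermis, Tie1 and Kdr for endothelium, and Msln and Lrrn4 for mesothelium. Which cells of the pool carried the inhibitor transcripts was not tested.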

How the data were processed

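RNA of 1 pool of laser-captured cells was extracted with Trizol, cleaned on columns with DNase I and labelled with biotin by an Ambion kit, per the labels' protocols. The authors deposited non-normalized intensity, normalized intensity and a detection p-value for 25697 probes on 3 arrays, per the file headers. Neither the normalization method nor the scanner software is given in the sources used here. Their series value table held the same normalized intensity, on a linear scale with no centring (medians of 14.9, 21.5 and 15.0).

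Inhibitor probes were taken where the deposited symbol or synonym matched, and joined between tables by probe. Other probes were named through RefSeq GRCm38.p6: 17548 by symbol, 1320 by definition and 5854 by a synonym, while 975 kept their deposited name. List genes are valued by their brightest probe. The named genes are the 10 inhibitors and any gene of 4 pathway lists and 6 marker lists. The members, lists and rules were chosen with earlier results of these data known.

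A single group allowed no contrast, so no test between groups was made. Alternatives were other detection thresholds (0.05 and 0.001), fewer arrays, each array left out, every probe required, a signal floor, median scaling, quantile normalization and neqc in limma 3.58.1, run in R 4.3.3. For neqc the negative controls were inferred from the detection p. Calculations used Python 3.11.15 and pandas 2.3.3. The scripts for scaling, spread and probe detection calls were run on simulated data with planted values, which tests the code only. For scaling and detection calls the outcome was fixed by how the data were made.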

Additional observations from a re-analysis of the deposited data

How the results depend on the processing

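All 7 detected inhibitor probes had a detection p of 0 on every array, so a threshold of 0.001 could remove none of their calls. The signal floor of 26.3 lay below the lowest mean of these probes, 208 at Dkk1, and could remove none either. That Dkk1, Dkk3, Sfrp1, Sfrp2, Wif1 and Apcdd1 kept their calls under both was therefore fixed in advance. The inhibitor gene count ran from 5, with every probe required, which drops Dkk3, to 7 at a detection p under 0.05, which adds Frzb. Leaving out an array can only add calls under the rule used. Among the inhibitors it could add none, because no undetected inhibitor probe passed on any array. The counts thus stayed at 6 genes and 7 probes each time. For the 6 counts of detected genes or probes, all 53 alternative values lay within 1.5 times the reported count, and the ligand count ran from 6 to 12. These values include the inhibitor alternatives that could change no call.

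The spread between arrays depended on the scaling. With non-normalized signal divided by the array median, the median SD of log2 signal over the 7 detected probes was 0.58 and the median log2 ratio of array 2 to array 1 was -1.09, against 0.053 and 0.037 in the authors' normalized values. Over all detected probes that scaling gave a median ratio of -0.91. Quantile normalization gave 0.051 and 0.025, and neqc 0.054 and 0.027. Neither the median scaling nor the quantile normalization subtracted a background, and why they differ was not tested. Under quantile normalization and neqc, Dkk1 stayed higher on array 2 than on array 1, by 0.29 and 0.36 on the log2 scale. These scalings gave each detected inhibitor probe the same SD of signal, 41.3 at Dkk1, so they are not independent checks. No paired analysis was possible because the series holds 1 group. Technical replicates of 1 pool give no measure of variation between embryos, and the call of a dim transcript such as Frzb depends on the threshold.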
